A study of Mus musculus with 23 samples.

Results

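The homeostatic microglia genes were 9 of the 55335 genes counted in whole mouse hippocampus: Tmem119, P2ry12, P2ry13, Cx3cr1, Csf1r, Gpr34, Siglech, Selplg and Sall1. They were taken by gene symbol from the count table and followed in 23 libraries, 1 per sample, that fall into 6 groups. The study compared 3xTg mice, which model Alzheimer's disease, with wild-type (WT) mice, and then infused both with an inhibitor of SCD, stearoyl-CoA desaturase, which puts the double bond into saturated fatty acids. All mice were female. 3xTg mice carry human APPSwe and tauP301L transgenes, both driven by the neuron-specific Thy1.2 element, so these transgenes are neuronal and not microglial. WT mice (C57BL/6J x 129S1) were a separate line used as strain control. Both lines were purchased and then bred in-house. The 3xTg alleles and other differences between the lines cannot be told apart. At 8 months of age WT-8M (n = 4) and 3xTg-8M (n = 4) mice were untreated and unoperated. At 10 months all mice had carried pumps into the lateral ventricle for 28 days. The vehicle, 0.8% DMSO in artificial cerebrospinal fluid, went to WT-D (n = 4) and 3xTg-D (n = 4), and 80 µM of the SCD inhibitor ab142089 (SCDi) in the same vehicle went to WT-S (n = 3) and 3xTg-S (n = 4). Age, operation and library set differ together between the 8-month and the 10-month mice and cannot be told apart.

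Microglia are the resident macrophages of the brain. In the undisturbed brain they survey their surroundings with fine processes. They express a set of surface receptors, not all confined to microglia, and lower several of these genes when they become activated around damage or amyloid. The receptors follow the state of nearby neurons: P2ry12 and P2ry13 encode receptors for ADP, Cx3cr1 encodes the receptor for the neuronal chemokine fractalkine, and Csf1r encodes the receptor for CSF1 and IL-34 on which microglia depend for survival. Gpr34 encodes a receptor for lysophosphatidylserine. Siglech encodes a sialic acid-binding lectin that signals through the adaptor Tyrobp, Selplg encodes the P-selectin ligand PSGL-1, Tmem119 encodes a membrane protein used to tell microglia from blood-derived macrophages, and Sall1 encodes a zinc finger transcription factor of microglial identity.

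Depth ranged from 12.8M to 36.7M counts in genes in the 8-month libraries, and in the 10-month ones from 12.99M to 17.6M. All 9 genes were counted in every library, from 139 counts of Gpr34 in 1 library to 3393 counts of Csf1r in another, and all passed the filter on low counts in every comparison. Levels are given as CPM, which scales each library's gene counts to the same total, and between genes as CPM per kilobase of exon. Per kilobase, the means and ranges over the 23 libraries gave the order P2ry12 (19.3, range 11.7 to 23.8), Csf1r (15.8, range 12.4 to 20.98), Cx3cr1 (11.7, range 9.94 to 14.7), Gpr34 (8.62, range 4.82 to 11.98), Tmem119 (7.8, range 4.79 to 11.6), P2ry13 (6.35, range 4.55 to 8.64), Siglech (5.2, range 3.82 to 7.03), Selplg (5.19, range 3.33 to 8.13) and Sall1 (4.23, range 3.39 to 5.47). P2ry12 was above Csf1r in 22 of the 23 libraries. The neighbours that changed order most often were Gpr34 and Tmem119, with Gpr34 higher in 17 libraries, Siglech and Selplg, with Siglech higher in 14, and Selplg and Sall1, with Selplg higher in 18. Border macrophage genes (10, among them Mrc1, Cd163 and Lyve1), the markers of the other resident macrophages, summed to 8.75 to 40.9 CPM per library, against 258 to 393 CPM for the 9 homeostatic genes, and 8 blood leukocyte genes summed to 0.403 to 3.53 CPM.

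The genes lie on 7 chromosomes (GRCm38). P2ry13 (chr3:59207892-59210882) and P2ry12 (chr3:59216272-59262871) are neighbours on the minus strand, 5389 bases apart, inside the gene Med12l on the opposite strand. Tmem119 (chr5:113793729-113800516) and Selplg (chr5:113818536-113832644) are neighbours on chromosome 5, 18019 bases apart. The others are Siglech (chr7:55768178-55778925), Sall1 (chr8:89027235-89044162), Cx3cr1 (chr9:119901616-120069879), Csf1r, whose position is not printed, and Gpr34 (chrX:13632089-13640858), which lies inside Cask on the opposite strand without sharing an exonic base. The sources used here do not say if reads were counted by strand. Csf1r shares 873 exonic bases with the opposite-strand gene Hmgxb3, so its values are uncertain to that extent, and Cx3cr1 shares 78 with Gm33858 and P2ry12 shares 9 with Med12l.

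The promoters of 3 members are shown. P2ry13 and P2ry12 are neighbours of which only P2ry13 was called over both infusions at 10 months. Whether the neighbours differ from each other was not tested. Siglech is the member called in inhibitor-treated mice. Each is the 250 bases before the transcription start in RefSeq (GRCm38.p6), read 5′ to 3′ on the gene's strand. Capitals mark matches to a core of the binding motif of PU.1, the macrophage transcription factor encoded by Spi1, searched on both strands as GAGGAA and as GGAAGT.
P2ry13 (chr3:59210883-59211132, minus strand): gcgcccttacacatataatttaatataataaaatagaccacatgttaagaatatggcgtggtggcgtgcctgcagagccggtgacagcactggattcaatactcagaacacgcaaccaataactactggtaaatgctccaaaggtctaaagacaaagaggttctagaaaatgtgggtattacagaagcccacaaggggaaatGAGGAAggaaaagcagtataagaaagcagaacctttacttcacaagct
P2ry12 (chr3:59262986-59263235, minus strand): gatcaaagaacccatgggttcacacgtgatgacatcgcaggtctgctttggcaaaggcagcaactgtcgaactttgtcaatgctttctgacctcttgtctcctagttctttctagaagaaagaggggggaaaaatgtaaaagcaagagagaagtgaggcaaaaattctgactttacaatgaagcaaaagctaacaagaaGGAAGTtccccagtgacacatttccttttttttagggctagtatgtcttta
Siglech (chr7:55767934-55768183, plus strand): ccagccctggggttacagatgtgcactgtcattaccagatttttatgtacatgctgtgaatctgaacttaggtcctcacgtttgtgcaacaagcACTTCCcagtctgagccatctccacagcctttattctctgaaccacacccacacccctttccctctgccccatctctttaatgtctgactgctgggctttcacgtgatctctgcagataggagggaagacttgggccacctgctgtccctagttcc
The P2ry13 window held GAGGAA 1 time, and those of P2ry12 and Siglech held GGAAGT 1 time each, in Siglech on the other strand. GAGGAA was in 23.3% of 32851 promoter windows of the same length and GGAAGT in 19.7%, and either was in 36.7%, so a match in a single window is common. Of the 3 starts listed for Sall1, 1 had GGAAGT, and the window of Cx3cr1 had neither.

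The first comparison asked whether the homeostatic genes differ between the strains at 8 months without treatment. Tmem119 showed the largest difference, Selplg, Siglech and P2ry13 followed, and the values of P2ry12 and Gpr34 were nearest to 0, but none of the 9 genes passed the test. Tmem119 was at 24.6, 19.8, 18.5 and 17.2 CPM in the 3xTg-8M libraries and at 11.1, 12.6, 16.9 and 14.5 CPM in WT-8M. Every 3xTg-8M library was above every WT-8M library. The log2 fold change was 0.56 (SE 0.14, 95% interval 0.26 to 0.87) with an adjusted p of 0.0593 by edgeR's quasi-likelihood test, just outside the threshold of 0.05. P2ry13, with 17.4, 18.4, 17.1 and 14.7 CPM against 14.0, 13.03, 12.9 and 14.7 CPM, differed by 0.30 on the log2 scale (SE 0.09, adjusted p 0.108), and the lowest 3xTg-8M library was barely above the highest WT-8M library. P2ry12 was at 52.1, 46.2, 51.9 and 44.8 CPM in 3xTg-8M and at 52.6, 45.1, 47.6 and 51.2 CPM in WT-8M, with a log2 fold change of -0.01 (95% interval -0.18 to 0.16).

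The remaining genes at 8 months gave log2 fold changes of 0.34 for Siglech (SE 0.10, adjusted p 0.127), 0.34 for Selplg (SE 0.14, adjusted p 0.2445), 0.20 for Csf1r (SE 0.08, adjusted p 0.2445), 0.14 for Cx3cr1, 0.09 for Sall1 and 0.04 for Gpr34. The median over the 9 genes was 0.20, against 0.00596 over all 15483 genes tested. No member was called at an adjusted p under 0.05, where 2.58% of all genes were called, and 5 of 9 had an unadjusted p under 0.05, as did 17.4% of all genes. These 5 became 3 without WT-8M replicate 1, WT-8M replicate 2 or 3xTg-8M replicate 1. The groups did not overlap, with 3xTg-8M higher, for 2 members and for 4.91% of all genes. In whole tissue, more cells of a type and more RNA per cell cannot be told apart.

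**Figure D1:**
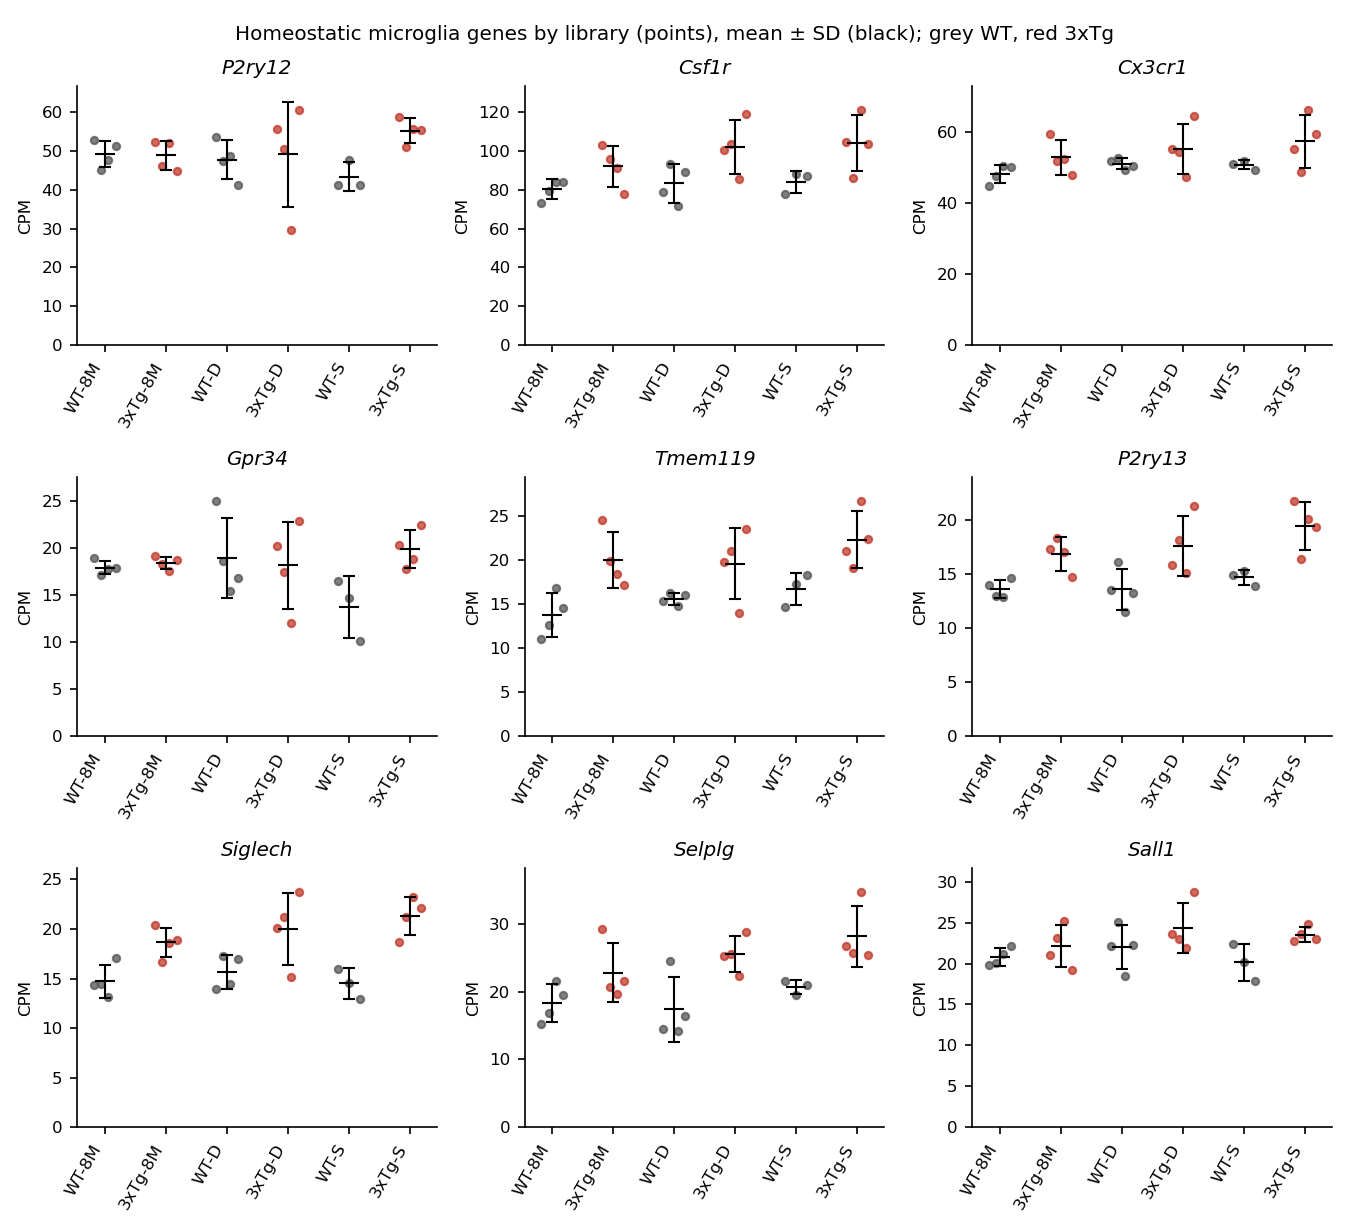
Level of each of the 9 homeostatic microglia genes (y axis, CPM, from 0) in every library by group (x axis). Points are libraries, grey for WT and red for 3xTg, and black bars are the group mean with SD. For Siglech the WT groups average 14.5 to 15.6 CPM and the 3xTg groups 18.6 to 21.3 CPM, while P2ry12 lies between 43.3 and 55.2 CPM in all group means and its lowest library is 3xTg-D replicate 3.

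The same question was then asked in vehicle-infused mice of 10 months, 3xTg-D against WT-D. Selplg, P2ry13, Siglech, Tmem119 and Csf1r were again on the higher side in 3xTg, and again none passed the test. Selplg was at 25.2, 25.6, 22.3 and 28.8 CPM in 3xTg-D and at 14.5, 24.4, 14.2 and 16.4 CPM in WT-D. A single WT-D library, replicate 2, overlapped the 3xTg-D range, and the log2 fold change was 0.54 (SE 0.15, adjusted p 0.129). The log2 fold changes were 0.36 for P2ry13 (SE 0.13, adjusted p 0.246), 0.34 for Siglech (SE 0.13, adjusted p 0.283), 0.31 for Tmem119 (SE 0.14, adjusted p 0.353) and 0.28 for Csf1r (SE 0.10, adjusted p 0.252). No member was called, where 1.39% of all genes were, 5 of 9 had an unadjusted p under 0.05, against 13.1% of all genes, and no member had groups without overlap, which 4.04% of all genes had with 3xTg-D higher. The 5 became 1 without 3xTg-D replicate 4, 2 without WT-D replicate 3, and 3 without WT-D replicate 1 or 3xTg-D replicate 2. The median log2 fold change of the members was 0.28.

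A single library, 3xTg-D replicate 3, was the lowest of its group for all 9 genes, at 29.7 CPM for P2ry12 where the others had 55.5, 50.4 and 60.6 CPM, and at 12.1 CPM for Gpr34 where the others had 20.2, 17.4 and 22.9 CPM. The same library had the lowest oligodendrocyte sum of its group, 3667 CPM against 4885 to 5758 CPM. It had the highest border macrophage sum, 39.1 CPM against 19.3 to 29.3 CPM. The sum of 15 other homeostatic microglia genes was highest there, 704 CPM against 601 to 650 CPM. Sparc, a gene of that list, ranged from 161 to 315 CPM in 3xTg-D with a median of 172 CPM. The sum therefore does not give the direction of the other genes of the list. Blood leukocyte (3.53 CPM against 1.66 to 2.05 CPM) and choroid plexus sums (129 CPM against 40.7 to 117 CPM) were highest there too. The part of these lists in the result was not tested. Without 3xTg-D replicate 3, Tmem119 (log2 fold change 0.47, adjusted p 0.0194) and Siglech (0.48, adjusted p 0.0396) were called higher in 3xTg-D, while P2ry12 had 0.22 (adjusted p 0.438) and Gpr34 had 0.09 (adjusted p 0.912).

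Among inhibitor-treated mice, 3xTg-S against WT-S, all 9 genes were on the higher side in 3xTg and Siglech was called. Siglech was at 18.7, 21.2, 23.2 and 22.1 CPM in 3xTg-S and at 16.0, 14.6 and 12.9 CPM in WT-S, with no overlap. The log2 fold change was 0.55 (SE 0.11, 95% interval 0.31 to 0.79, adjusted p 0.0314), a 1.47-fold difference. It was called in 5 of 13 alternatives, with adjusted p-values of 8.04e-05 to 0.125, and it was lost when 3xTg-S replicate 2, 3 or 4, or WT-S replicate 2 or 3, was left out. It was also lost with mice blocked by animal number in sets of 4 (0.62, adjusted p 0.102), with the trend on transcript length and GC content removed (adjusted p 0.0524) and with all 15 libraries in one fit (adjusted p 0.0598). P2ry12, at 58.7, 51.0, 55.5 and 55.4 CPM against 41.3, 47.5 and 41.2 CPM, did not overlap either and differed by 0.35 on that scale (SE 0.08, adjusted p 0.0638). Gpr34, at 20.3, 17.8, 18.9 and 22.4 CPM against 16.5, 14.7 and 10.1 CPM, had 0.53 (SE 0.15, adjusted p 0.169).

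Selplg (0.44, SE 0.12), Tmem119 (0.41, SE 0.12), P2ry13 (0.40, SE 0.11), Csf1r (0.30, SE 0.10), Sall1 (0.22, SE 0.09) and Cx3cr1 (0.18, SE 0.10) had adjusted p-values of 0.121 to 0.599 in that comparison. Of the 9 members, 1 was called, where 1.32% of all genes were called and 0.613% were called higher. At an unadjusted p under 0.05 there were 8 of 9 members and 10.6% of all genes, and 7 members had no overlap with 3xTg-S higher, as 5.49% of all genes had. The median log2 fold change was 0.40. The myelin gene Mobp was called higher in the same 3xTg-S libraries (log2 fold change 0.49, SE 0.09, adjusted p 0.0156), and the 6 oligodendrocyte genes summed to 5695 to 6634 CPM in 3xTg-S and 3798 to 4954 CPM in WT-S. Their part in the result on the members was not tested.

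Over both infusions, the strain difference at 10 months was estimated from all 15 libraries with the infusion as a covariate. Selplg, Siglech, P2ry13, Tmem119 and Csf1r rose in 3xTg, while P2ry12, Cx3cr1, Gpr34 and Sall1 did not pass the test. The log2 fold change was 0.50 for Selplg (SE 0.10, 95% interval 0.28 to 0.72, adjusted p 0.00631), 0.44 for Siglech (SE 0.09, 0.24 to 0.63, adjusted p 0.00654) and 0.38 for P2ry13 (SE 0.09, 0.20 to 0.56, adjusted p 0.0113). Tmem119 had 0.36 (SE 0.10, adjusted p 0.0318) and Csf1r had 0.29 (SE 0.08, adjusted p 0.0298), which are differences of 1.28-fold and 1.22-fold.

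Selplg, Siglech and P2ry13 were called in all 20 alternatives of this fit, Csf1r in 15 and Tmem119 in 14. Of the genes not called, Sall1 had 0.17 (SE 0.07, adjusted p 0.192), Gpr34 had 0.18 (SE 0.15, adjusted p 0.574), P2ry12 had 0.17 (SE 0.12, 95% interval -0.07 to 0.42, adjusted p 0.464) and Cx3cr1 had 0.14 (SE 0.07, 95% interval -0.01 to 0.28, adjusted p 0.300). Without 3xTg-D replicate 3, P2ry12 was called as well (0.28, adjusted p 0.0174). Of the 9 members, 5 were called higher and 0 lower, where 6.53% of all 16262 genes were called and 3.17% were called higher. The count was 3 without 3xTg-D replicate 4, WT-S replicate 1 or 3xTg-S replicate 3.

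The 3 strain comparisons share no library, and 7 of the 9 genes had a positive log2 fold change in all of them, as did 20.3% of the 15194 genes tested in all 3. The 5 genes called over both infusions had an unadjusted p under 0.05 by edgeR in each of the 3. Of all genes tested, called or not, 1.13% had that with a positive sign. The vehicle and inhibitor pairs hold the same 15 libraries as the call over both infusions, so only the 8-month comparison is separate from it. The small p-values also rest on single libraries, since in the vehicle pair alone 1 of 9 members had such a p without 3xTg-D replicate 4. P2ry12 and Gpr34 were positive in 2. A test of whether the strain difference itself changed between the untreated 8-month and the vehicle-infused 10-month mice called no member, where 0.0621% of all genes were called. The difference of the log2 fold changes, 8 months minus 10 months, lay between -0.20 for Selplg (95% interval -0.68 to 0.28) and 0.25 for Tmem119 (-0.19 to 0.69).

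**Figure D2:**
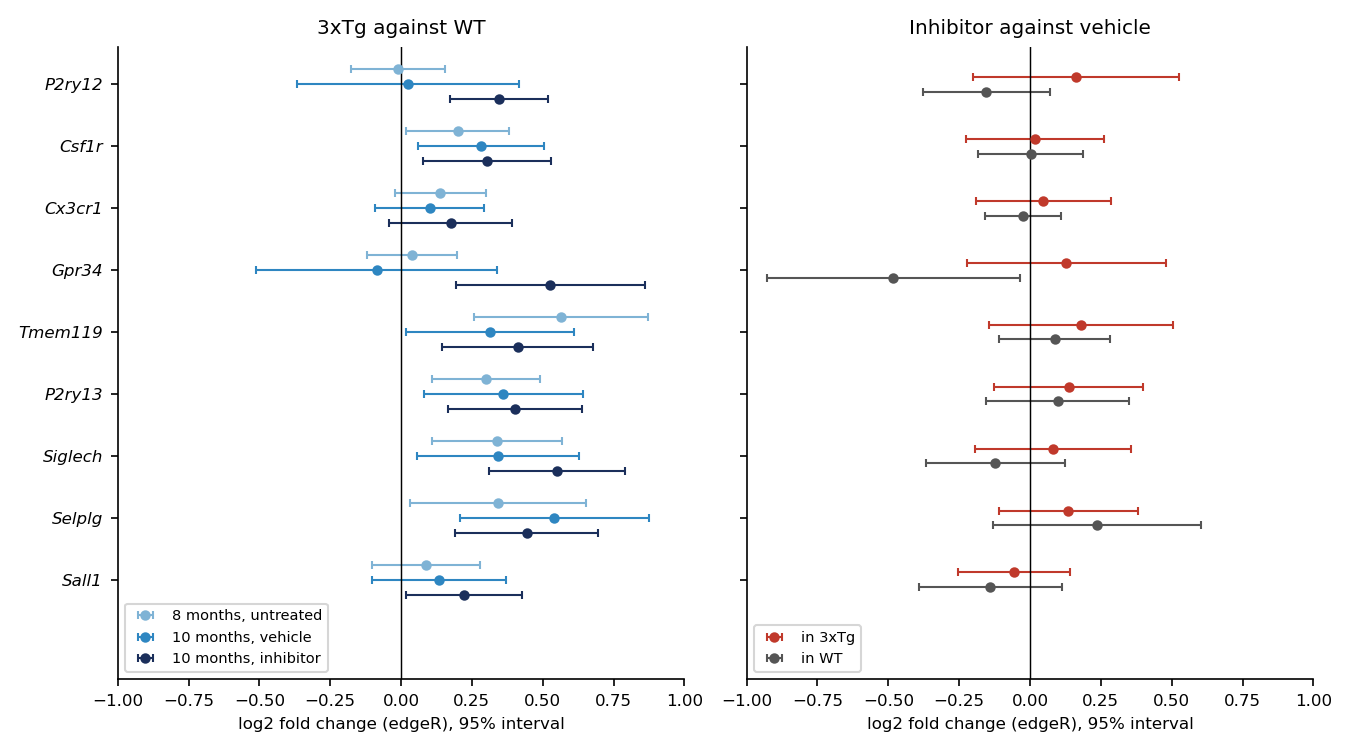
Log2 fold change (x axis) of each homeostatic gene (y axis) with its 95% interval from edgeR, for 3xTg against WT in the 3 settings on the left and for inhibitor against vehicle in each strain on the right. On the left Selplg, Siglech, P2ry13, Tmem119 and Csf1r lie to the right of 0 in all 3 settings, and on the right all intervals but that of Gpr34 in WT include 0.

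The next comparisons asked whether the SCD inhibitor changed these genes. In 3xTg mice, 3xTg-S against 3xTg-D, none was called, and the log2 fold changes were small: 0.18 for Tmem119 (95% interval -0.14 to 0.51), 0.16 for P2ry12 (-0.20 to 0.53), 0.14 for P2ry13 (-0.13 to 0.40), 0.14 for Selplg (-0.11 to 0.38), 0.13 for Gpr34 (-0.22 to 0.48), 0.08 for Siglech (-0.19 to 0.36), 0.05 for Cx3cr1 (-0.19 to 0.29), 0.02 for Csf1r (-0.23 to 0.26) and -0.06 for Sall1 (-0.25 to 0.14). The widest interval, that of P2ry12, reached a 1.44-fold higher level. The groups overlapped for every member, as for all but 6.89% of genes. Of the 15530 genes tested, edgeR called 0% and DESeq2 called 14, while edgeR with no filter on low counts called 112, no member had an unadjusted p under 0.05, and 1733 genes (11.2%) had one. Without 3xTg-D replicate 3 the values of P2ry12, Gpr34, Siglech, Cx3cr1 and Csf1r turned below 0, to between -0.07 and -0.02.

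In WT mice, WT-S against WT-D, Gpr34 was the only member with an unadjusted p under 0.05 (1 of 9, where 3.42% of all genes had one). It was at 16.5, 14.7 and 10.1 CPM in WT-S and at 25.0, 18.6, 15.4 and 16.8 CPM in WT-D, and the groups overlapped. The log2 fold change was -0.48 (SE 0.20, 95% interval -0.93 to -0.04, adjusted p 0.981), and it was -0.30 without WT-D replicate 1 and -0.28 without WT-S replicate 3. The other members lay between -0.15 for P2ry12 (95% interval -0.38 to 0.07) and 0.24 for Selplg (-0.13 to 0.60). None of the 15724 genes tested was called by edgeR (0%) or DESeq2, edgeR with no filter called 2, 538 had an unadjusted p under 0.05, and the groups overlapped for every member and for all but 4.94% of genes.

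Over both strains the inhibitor difference was between -0.14 for Gpr34 (95% interval -0.47 to 0.18) and 0.18 for Selplg (-0.04 to 0.40), with a median of 0.0145 over the members. No member was called or had an unadjusted p under 0.05. Of all genes, edgeR called 0%, or 94 genes with no filter, DESeq2 called 55, and 13.6% (2209) had an unadjusted p under 0.05. The test of whether the inhibitor acts differently in the strains called no member either (0% of all genes by edgeR, 8 genes with no filter, 0 by DESeq2). Gpr34 had the largest interaction, 0.61 (95% interval 0.01 to 1.21, unadjusted p 0.0453 by edgeR, adjusted p 1.00), and 2.32% of all genes (377) had an unadjusted p under 0.05 there. It was 0.42 without WT-S replicate 3 and 0.43 without WT-D replicate 1.

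The study also set inhibitor-treated 3xTg mice against vehicle-treated WT mice, 3xTg-S against WT-D, to see which strain differences remain under treatment. Tmem119, Siglech, P2ry13 and Selplg were called higher in 3xTg-S, 4 of 9 members where 2.29% of all genes were called and 1.19% were called higher. Their log2 fold changes were 0.50 for Tmem119 (SE 0.10, adjusted p 0.0235), 0.43 for Siglech (SE 0.09, adjusted p 0.0317), 0.50 for P2ry13 (SE 0.11, adjusted p 0.0373) and 0.68 for Selplg (SE 0.16, adjusted p 0.0450). Beside them, on the same WT-D libraries, the values of 3xTg-D were 0.31, 0.34, 0.36 and 0.54. Csf1r had 0.31 (adjusted p 0.154), P2ry12 0.19, Cx3cr1 0.15, Sall1 0.08 and Gpr34 0.04. The 4 calls rest on small margins: 0 remained without WT-D replicate 1, WT-D replicate 3 or 3xTg-S replicate 4, 1 without 3xTg-S replicate 1 or replicate 3, 2 without WT-D replicate 4, and 0 once the trend on transcript length and GC content was removed from each library.

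The neighbouring pairs were looked at for differences that they share with their surroundings. Within 1 Mb of Tmem119 and Selplg, 1 of 28 other tested genes was called at 8 months (Ssh1, higher in 3xTg) and 0 of 29 over both infusions at 10 months. Around P2ry13 and P2ry12 it was 0 of 12 and 1 of 13 (Gm8276, lower in 3xTg). Over both infusions at 10 months P2ry13 was called (0.38, 95% interval 0.20 to 0.56) and its neighbour P2ry12 was not (0.17, -0.07 to 0.42). These intervals overlap, and a difference between the neighbours was not tested. Without 3xTg-D replicate 3, P2ry12 was called as well (0.28).

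Within groups, the 9 genes varied together from library to library. After each gene's log2(CPM + 1) was centred on its group mean, all 36 pairs of members had a positive Pearson r over the 23 libraries, with a median of 0.518 and a range of 0.132 to 0.869, while the median over all pairs of 11650 genes with at least 5 CPM was 0.025. These are descriptions over libraries that also share depth and tissue composition. Cx3cr1 and Csf1r were the most alike pair (0.869), followed by Tmem119 with Cx3cr1 (0.855) and Tmem119 with Csf1r (0.852). Gpr34 and Selplg were the least alike (0.132), and Gpr34 went mainly with P2ry12 (0.728). Cx3cr1 followed the mean of the other 8 most closely (0.879) and Gpr34 least (0.535). The mean deviation was lowest in 3xTg-D replicate 3 (-0.33) and highest in 3xTg-D replicate 4 (0.26).

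**Figure D3:**
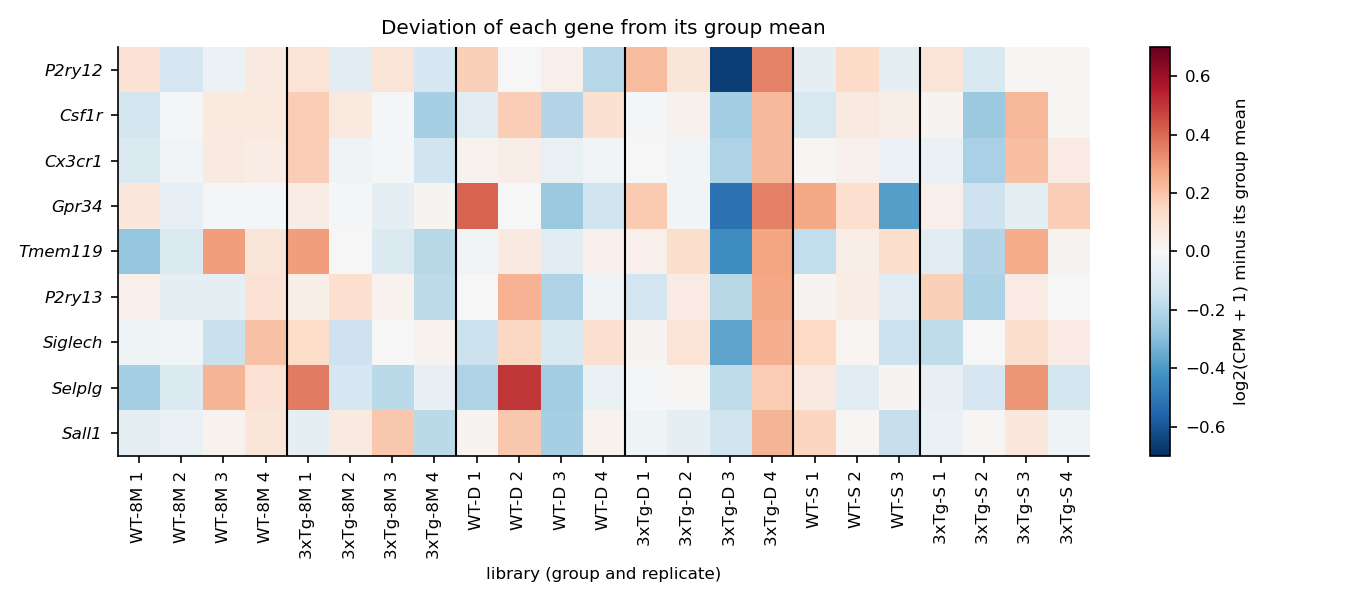
Deviation of each homeostatic gene (rows) from its group mean in each library (columns, group and replicate number), as log2(CPM + 1), blue below and red above the mean; black lines separate the groups. 3xTg-D replicate 3 is blue in all 9 rows, down to -0.66 for P2ry12, and 3xTg-D replicate 4 is red in all 9.

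Outside the 9, the genes whose centred level was most like the members' mean were Asrgl1 (r 0.894), Mpeg1 (0.888), a pore-forming protein of macrophages, Unc93b1 (0.863), a chaperone of endosomal Toll-like receptors, and Tubb2b (0.857), a tubulin. These values are a description over 23 libraries.

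Other microglia genes rose in 3xTg together with the members at 10 months. Over both infusions, 8 of 15 other homeostatic genes were called higher, among them Slco2b1, an organic anion transporter (log2 fold change 0.49, SE 0.08, adjusted p 0.000369), the ectonucleotidase Entpd1 (0.44, SE 0.07, adjusted p 0.000867) and Pros1 (0.40, SE 0.09). Of 15 pan-microglia genes, which homeostatic and activated microglia share, 10 were called higher, among them the complement genes C1qb (0.51, SE 0.07, adjusted p 0.000145), C1qa (0.47, SE 0.07) and C1qc (0.45, SE 0.08) and the protease Ctss (0.64, SE 0.11). No gene of either list was called lower. Median log2 fold changes were 0.38 and 0.43 for these lists and 0.29 for the members, against -0.000607 over all genes.

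Of 17 tested activation genes, 3 were called higher over both infusions: Cst7, at most 1.24 CPM in any library (2.53, SE 0.44), B2m (0.58, SE 0.13) and Ccl6 (0.84, SE 0.22). An unadjusted p under 0.05 by edgeR was found for 9 of the 17, where 19.7% of all genes had one. The log2 fold change was positive for 13 of the 17 and negative for 4. Slco2b1 was called in both pairwise strain comparisons without the inhibitor, at 8 months (0.48, SE 0.09, adjusted p 0.0164) and under vehicle (0.50, SE 0.09, adjusted p 0.0137). At 8 months Tyrobp (0.57, SE 0.13, adjusted p 0.0383), the adaptor through which Siglech signals, was called higher as well, and the activation gene Gpnmb (-0.64, SE 0.15, adjusted p 0.0467) was called lower. Under vehicle C1qb (0.48, SE 0.10), C1qa (0.49, SE 0.11) and Entpd1 (0.43, SE 0.08) were called higher too.

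Of the ligands for the members' receptors, Cx3cl1, which encodes fractalkine, was called lower in 3xTg over both infusions. It was at 368 to 393 CPM in 3xTg-D and 372 to 395 CPM in 3xTg-S, against 386 to 429 CPM in WT-D and 397 to 458 CPM in WT-S. The WT-S libraries all lay above the 3xTg libraries while WT-D overlapped them, and the log2 fold change was -0.12 (SE 0.04, adjusted p 0.0424). The Csf1r ligands Csf1 (0.03, SE 0.06) and Il34 (0.07, SE 0.05), and Tgfb1 (0.15, SE 0.12), the cytokine that maintains the homeostatic state, were not called. At 8 months the values were -0.02 for Cx3cl1, -0.02 for Csf1, 0.20 for Il34 (SE 0.07, adjusted p 0.182) and 0.24 for Tgfb1, and none of the 8 tested genes of this list was called in any other comparison.

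Among 10 transcription factors of microglia, Irf5 (0.53, SE 0.11, adjusted p 0.00558) and Irf8 (0.42, SE 0.12, adjusted p 0.0380), both interferon regulatory factors, were called higher in 3xTg over both infusions. The inhibitor comparisons called no gene of any list, in 3xTg, in WT or over both strains. Of the cell types outside the myeloid lineage, Prox1, a marker of dentate granule neurons, was called lower (-0.25, SE 0.07, adjusted p 0.0426) and Mobp was called higher (0.33, SE 0.08, adjusted p 0.0104). None of 6 astrocyte, 6 endothelial or 7 tested choroid plexus genes was called. At an unadjusted p under 0.05 by edgeR there were 4 of 8 neuron, 3 of 6 oligodendrocyte and 3 of 6 astrocyte genes. There were also 2 of 6 endothelial and 0 of 7 choroid plexus genes, where 19.7% of all genes had such a p. Of the neuron genes, 7 of 8 had a negative log2 fold change. The choroid plexus sum ranged from 31.3 to 368 CPM over the libraries, and its part was not tested. Of 7 tested border macrophage genes 0 were called, but 4 had an unadjusted p under 0.05 and their median log2 fold change was 0.55. Their sum was 19.3 to 39.1 CPM in 3xTg-D and 16.9 to 38.7 CPM in 3xTg-S, against 14.2 to 23.9 CPM in WT-D and 15.7 to 31.5 CPM in WT-S. The 8 blood leukocyte genes summed to 1.66 to 3.53 CPM in 3xTg-D and 1.19 to 2.30 CPM in 3xTg-S. In WT-D they summed to 0.403 to 1.18 CPM and in WT-S to 0.725 to 1.01 CPM. The strains did not overlap, but by a margin of only 1.19 against 1.18 CPM. Of the 8 genes, 1 passed the filter on low counts over both infusions. It was not called, with an unadjusted p under 0.05 by edgeR. Both lists were far below the 9 homeostatic genes in summed level, and their part in the strain differences was not tested.

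**Figure D4:**
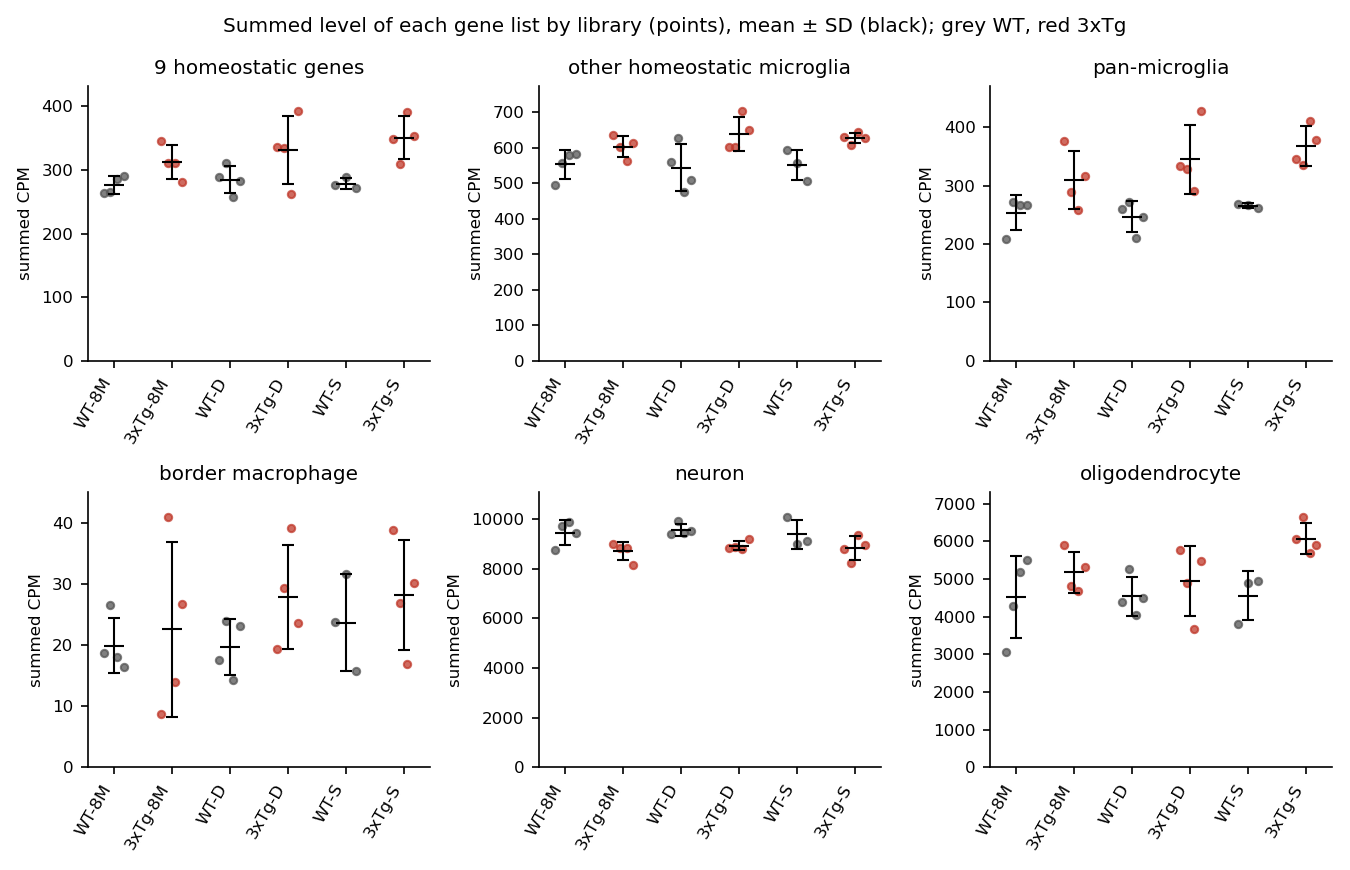
Summed level (y axis, CPM, from 0) of 6 gene lists in every library by group (x axis), points for libraries, grey for WT and red for 3xTg, black bars for mean with SD. The 9 homeostatic genes average 277 to 285 CPM in the WT groups and 312 to 351 CPM in the 3xTg groups, the pan-microglia genes 247 to 266 and 310 to 368 CPM, and the neuron genes 9399 to 9570 and 8717 to 8938 CPM.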

How the data were processed

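Whole hippocampus was profiled by polyA RNA sequencing, 1 library per sample. The authors trimmed the reads with Trimmomatic 0.35, aligned them to GRCm38 with STAR 2.5.1b and deposited raw counts per gene. The 4 lines that name no gene were left out of all totals and tests; they held 24.7 to 30.9% of each library. Groups followed the sample labels, and no pair of libraries held identical counts. Each sample's title carries a different animal number. Each comparison was fitted to the counts of all genes with edgeR 4.0.16 in R 4.3.3 (filterByExpr, TMM, quasi-likelihood test) with Benjamini-Hochberg adjustment over all genes tested, and called at an adjusted p under 0.05. Pairwise fits used the libraries of the pair, and the 10-month strain and inhibitor fits used 15 libraries. Scripts were tested on simulated data. Alternatives were DESeq2 1.42.0, DESeq2 size factors, no filter, removal of the trend on transcript length and GC content, other sample sets, a block of animal numbers, an unadjusted p under 0.01 and leaving out each library. All 9 members, 4 ligands, at most 4 called genes per list and comparison, and the 5 genes most like the members are named, except a few items that are not reported here; the members and all lists were chosen with earlier results of these data known. Exon lengths and positions came from a GRCm38 annotation.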

Additional observations from a re-analysis of the deposited data

Results flagged for a closer look

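Selplg in 3xTg-S replicate 3 stood apart from its group, at 34.7 CPM where the other 3 libraries had 26.7, 25.6 and 25.4 CPM. It was the only library marked by Dixon's criterion for a single far value among 45 gene and group combinations of 4 libraries each. Chance marks about 1 in 20 such groups.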

How the results depend on the processing

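Of the members' single-gene values under an alternative, 1364 kept their direction and side of the threshold, 31 passed it newly, 48 no longer passed it and 87 changed sign. The sign changes touched 28 of 90 combinations of gene and comparison, none of them called, and 74 came from leaving out 1 library. The cause was not tested.

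The pairs are called untreated (3xTg-8M and WT-8M), vehicle (3xTg-D and WT-D), inhibitor (3xTg-S and WT-S), within 3xTg (3xTg-S and 3xTg-D), within WT (WT-S and WT-D) and crossed (3xTg-S and WT-D). Leaving out 1 library moved these log2 fold changes across 0. For the untreated pair it gave -0.052 to 0.022 for P2ry12. For the vehicle pair it gave -0.10 to 0.22 for P2ry12 and -0.23 to 0.092 for Gpr34. Within 3xTg it gave -0.023 to 0.29 for P2ry12, -0.042 to 0.19 for Siglech, -0.11 to 0.046 for Sall1, -0.031 to 0.14 for Cx3cr1, -0.066 to 0.11 for Csf1r and -0.036 to 0.27 for Gpr34. Within WT it gave -0.044 to 0.013 for Cx3cr1 and -0.058 to 0.058 for Csf1r. For the crossed pair it gave -0.043 to 0.22 for Gpr34. For the inhibitor over both strains it gave -0.087 to 0.070 for P2ry12, -0.079 to 0.038 for Siglech, -0.030 to 0.058 for Cx3cr1 and -0.035 to 0.056 for Csf1r. For the interaction of strain and inhibitor it gave -0.047 to 0.15 for P2ry13, -0.047 to 0.21 for Tmem119, -0.00828 to 0.19 for Sall1, -0.00994 to 0.16 for Cx3cr1 and -0.071 to 0.11 for Csf1r. For strain by age it gave -0.15 to 0.049 for P2ry13, -0.22 to 0.089 for P2ry12, -0.13 to 0.094 for Siglech, -0.11 to 0.050 for Sall1, -0.039 to 0.13 for Cx3cr1, -0.17 to 0.00793 for Csf1r and -0.053 to 0.26 for Gpr34. Removing the length and GC trend gave 0.083 for P2ry12 in the untreated and -0.035 in the vehicle pair, -0.029 for Csf1r within WT, -0.00820 for Gpr34 in the crossed pair, -0.00195 for Csf1r under the inhibitor over both strains, and for strain by age 0.00967 for P2ry13, 0.12 for P2ry12 and 0.047 for Siglech. The block gave -0.00932 for P2ry12 in the vehicle pair and -0.011 for Csf1r within WT, where DESeq2 size factors and the DESeq2 test gave -0.00218 and no filter -0.013.

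Members called for the untreated, vehicle and inhibitor pairs were 1, 2 and 7 with no filter, 1, 1 and 2 by DESeq2, and 3, 1 and 6 at an unadjusted p under 0.01. For the inhibitor pair the count was 0 with the length and GC trend removed, with the block and with all 15 libraries in one fit. For the crossed pair it was 0 with the trend removed and 2 with all 15 libraries. Leaving out 1 library gave 0 to 1, 0 to 2 and 0 to 3 members for the first 3 pairs, 0 to 4 for the crossed pair and 3 to 6 for strain over both infusions.

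All genes called, with no filter, were 854 for the untreated, 792 for the vehicle, 729 for the inhibitor and 1135 for the crossed pair, 112 within 3xTg, 2 within WT, 94 for the inhibitor over both strains, 8 for its interaction with strain and 33 for strain by age. DESeq2 called 684 for the untreated, 386 for the vehicle and 577 for the crossed pair, 14 within 3xTg, 55 for the inhibitor over both strains and 21 for strain by age. With all 15 libraries the vehicle pair had 355, and with the block the inhibitor pair had 78. At an unadjusted p under 0.01 there were 1066 genes for the untreated, 769 for the vehicle, 649 for the inhibitor and 1026 for the crossed pair, 391 within 3xTg, 59 within WT, 1595 for strain and 650 for the inhibitor over all 15 libraries, 57 for their interaction and 352 for strain by age. Leaving out 1 library gave 227 to 449, 125 to 200, 105 to 286 and 155 to 341 for the untreated, vehicle, inhibitor and crossed pairs, 0 to 1 within 3xTg, within WT and for the inhibitor, 843 to 1102 for strain, 0 to 0 for the interaction and 6 to 17 for strain by age.

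No paired analysis was possible because the labels give animal numbers and no replicate numbers shared between groups; the block of 4 consecutive animal numbers stands in for it at 10 months. Member counts of 139 to 3393 per library and 3 or 4 libraries a group limit the precision.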
